A study of Mus musculus with 15 samples.

Results

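Histone acetylation is written by lysine acetyltransferases, removed by deacetylases and read by bromodomain proteins, and 41 mouse genes of this machinery were described here across 2 brain tumour models. They were taken by name: 11 zinc-dependent deacetylases (Hdac1 to Hdac11), 7 sirtuins, 9 acetyltransferases, 2 bromodomain readers, 7 subunits of the NuRD complex, 3 corepressor scaffolds and 2 enzymes that supply acetyl-CoA. All 41 were found among the 24421 genes of the tables, and 41 of 41 passed the minimum mean of 10 normalised counts in every comparison.

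RNA came from frozen brain tumour tissue of mice, in 15 libraries of 5 groups with 3 each. In HGG the groups were Sox9-LOF, Sox9-GOF and control, and in EPN they were Sox9-GOF and control. HGG and EPN are usual abbreviations of high-grade glioma and ependymoma, and LOF and GOF of loss and gain of function of the gene Sox9, whose product is a DNA-binding regulator of glia. The labels give each genotype only in these words. They do not name the driver of the tumours, the way Sox9 was altered, the cells in which it was altered, or the strain, sex and age of the mice. Nor do they tell whether the 3 replicates of a group were different mice, and p-values therefore measure the spread between these libraries, which may be technical. The title of the series concerns Sox9 and epigenomic states of tumour subtypes, and the genes described here encode enzymes and readers of such states.

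Acetyl groups on histone tails loosen the contact of histones with DNA and form docking sites for bromodomains, and they are dense at active promoters and enhancers. CREBBP and EP300 place them at enhancers, KAT2A and KAT2B work within the SAGA and ATAC coactivators, and the MYST enzymes (KAT5 to KAT8) act in complexes of their own. HDAC1 and HDAC2 work inside large complexes, namely NuRD, which also slides nucleosomes through CHD4, SIN3 and CoREST, while HDAC3 needs the scaffold NCOR1 or its relative. The class IIa deacetylases HDAC4, HDAC5, HDAC7 and HDAC9 have little catalytic activity of their own and bind MEF2 factors. The sirtuins depend on NAD: SIRT1, SIRT6 and SIRT7 are mainly nuclear, SIRT2 is mainly cytoplasmic and abundant in myelin-forming cells, and SIRT3, SIRT4 and SIRT5 are mitochondrial.

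The depth was 4665428 to 14119140 reads per library, with a median of 10578708. Normalised counts below are these reads after all 15 libraries were rescaled together. HGG control libraries were less alike (pairwise correlations across genes of 0.819 to 0.861) than the libraries of any other group (0.930 to 0.965). Sox9 had 739, 579 and 395 normalised counts in the 3 HGG libraries labelled Sox9-LOF and 1275, 1537 and 1391 with HGG Sox9-GOF, against 218, 285 and 310.3 in HGG controls. In EPN it had 2055, 1834 and 2692 with Sox9-GOF, against 1045, 1040.2 and 1189 in controls. The transcript was thus higher, not lower, in the libraries labelled Sox9-LOF than in HGG controls. Transcript counts of bulk tissue cannot tell whether function was lost, and those samples are called the libraries labelled Sox9-LOF. The share of other cell types also varied: the summed oligodendrocyte list spanned 47394 to 158224 normalised counts in HGG controls and the choroid plexus list 110.1 to 109680.2. In bulk tissue, fewer cells of a type and less RNA per cell cannot be told apart.

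Levels per transcript length (RPKM, reads scaled by merged exon length and library size) put several NuRD genes near the top of the 41. Merged exon length joins the exons of all annotated transcripts, and the order of the genes depends on this choice. It is 4054 bases for Hdac3, 4474 for Hdac2 and 15813 for Hdac4, against 2032, 4232 and 8100 in GENCODE's smaller basic set. Over all 15 libraries the NuRD subunit Mbd3 had 60.5 ± 19.4 RPKM (SD, n = 15) and the NuRD remodeller Chd4 37.3 ± 7.25. Mta2 and Mta1, NuRD subunits that bind HDAC1 and HDAC2, had 33.7 ± 8.37 and 30.2 ± 11.3 RPKM. With merged lengths the 3 widely expressed class I enzymes were close to each other, with 25.3 ± 5.05 RPKM for Hdac2, 23.1 ± 5.46 for Hdac1 and 22.6 ± 5.0 for Hdac3, which are within their spread. Hdac8, the class I enzyme that works outside these complexes, had 2.85 ± 0.859 RPKM.

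Lowest of the 41 by merged exon length was the class IIa gene Hdac4. It had 1.01 ± 0.342 RPKM, its relative Hdac9 1.25 ± 0.416, the mitochondrial desuccinylase gene Sirt5 1.32 ± 0.181, Gatad2b 1.56 ± 0.801 and Crebbp 2.16 ± 0.634. The other class IIa genes were higher, with 11.6 ± 4.81 RPKM for Hdac5 and 5.79 ± 2.49 for Hdac7. Ep300, the close relative of Crebbp, had 5.81 ± 1.33 RPKM. Gatad2b, which links the parts of NuRD, was also low against its relative Gatad2a at 14.9 ± 3.47. Among acetyltransferases Kat2a had 18.1 ± 6.13 RPKM and Kat7, which acetylates histone H3 at lysine 14, 15.5 ± 1.2. The bromodomain reader Brd2 had 37.3 ± 5.72 RPKM and Brd3 9.93 ± 2.15, and Acly, which makes acetyl-CoA from citrate, had 34.8 ± 4.12 against 2.49 ± 0.632 for Acss2, which makes it from acetate. In GENCODE's basic set, the exons of Hdac11, Kat5 and Sirt3 overlap genes of the opposite strand over 26.0%, 18.9% and 12.4% of their length. That length is not the merged length used for RPKM. No source used here tells whether counting used strand, so the levels of these genes are uncertain.

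Summed by class, the 7 NuRD genes reached 175 ± 36.9 in the libraries labelled Sox9-LOF and 146 ± 28.3 with HGG Sox9-GOF, against 214 ± 34.9 in HGG controls (RPKM, mean ± SD, n = 3 each), and 198 ± 9.89 with EPN Sox9-GOF, against 193 ± 20.3 in EPN controls. Class I deacetylases summed to 66.6 ± 10.99 in the libraries labelled Sox9-LOF and 66.3 ± 9.77 with HGG Sox9-GOF, against 72.6 ± 15.7 in HGG controls, and to 84.6 ± 5.25 with EPN Sox9-GOF, against 79.3 ± 5.66 in EPN controls. These class I sums lay within the spread of the libraries. Class IIa summed to 20.7 ± 4.08 in the libraries labelled Sox9-LOF and 14.4 ± 2.67 with HGG Sox9-GOF, against 29.2 ± 6.10 in HGG controls, and to 16.7 ± 1.27 with EPN Sox9-GOF, against 17.0 ± 0.536 in EPN controls. The 2 p300/CBP genes summed to 7.92 ± 1.49 in the libraries labelled Sox9-LOF and 8.46 ± 1.96 with HGG Sox9-GOF, against 5.50 ± 0.904 in HGG controls, and to 8.93 ± 1.88 with EPN Sox9-GOF, against 9.06 ± 0.456 in EPN controls. Both of these classes lay close to their controls in EPN. The sirtuin sum, of which Sirt2 is the largest part, was 80.1 ± 21.2 in the libraries labelled Sox9-LOF and 74.0 ± 27.99 with HGG Sox9-GOF, against 142 ± 71.3 in HGG controls, with an SD in the controls of about the size of the difference. No test was run on these sums.

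**Figure D1:**
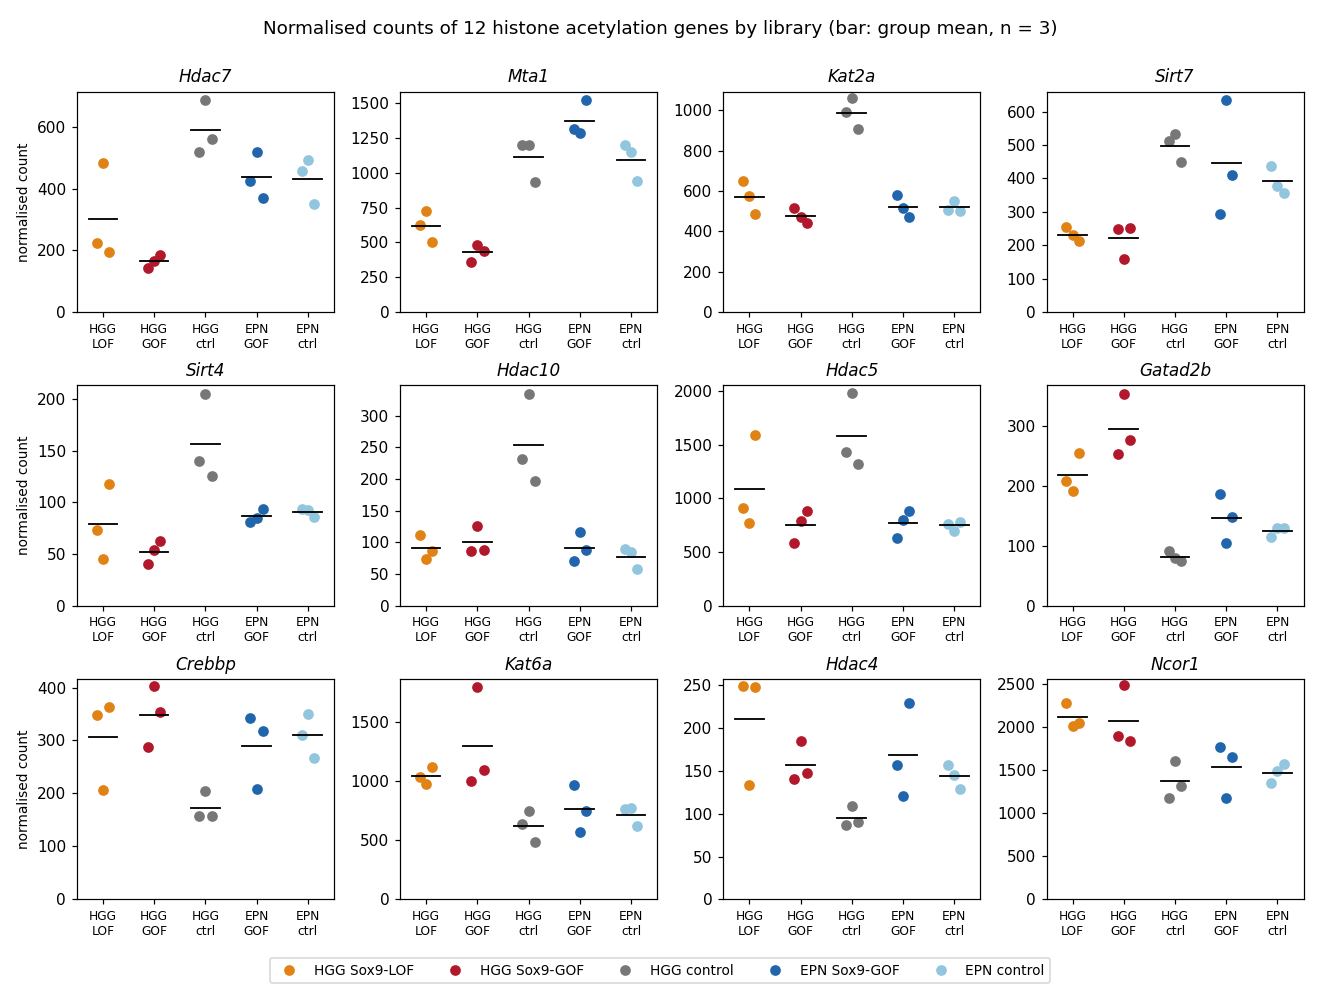
Normalised counts (vertical axes, linear and starting at 0) of 12 of the 41 genes in every library, by group from left to right: HGG Sox9-LOF, HGG Sox9-GOF, HGG control, EPN Sox9-GOF and EPN control. Points are libraries and bars group means (n = 3 each). In Hdac7, Mta1, Kat2a, Sirt7 and Sirt4 the HGG controls lie above both other HGG groups, and in Gatad2b they lie below them.

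The comparison of HGG Sox9-GOF with HGG control held the widest fold changes of the 41, with Hdac7 lowest and Gatad2b highest. No gene passed limma at an adjusted p of 0.05, neither among the 41 nor among all 15092 tested (0%), and edgeR's quasi-likelihood test also called 0. At an unadjusted p under 0.05 stood 16 of the 41 (39.0%), 7 higher and 9 lower, against 22.7% of all genes tested, 11.7% higher and 11% lower. Without overlap between the 2 groups were 20 of the 41 (48.8%), 8 higher and 12 lower, against 30.5% of all genes, 15.3% higher and 15.2% lower. DESeq2 called 13 (31.7%), 4 higher and 9 lower, against 13.6% of all genes, 6.73% higher and 6.85% lower. With a minimum mean of 50 limma called Hdac7, Mta1 and Gatad2b, beside 1.25% of all genes.

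Hdac7 (ENSMUSG00000022475.19, chromosome 15, 97792664 to 97844502, minus strand, mm10) encodes a class IIa deacetylase known from blood vessels and developing T cells. It had 144, 167 and 185 normalised counts with HGG Sox9-GOF, against 517, 687 and 560.3 in HGG controls. All 3 Sox9-GOF libraries lay below all 3 controls, and the log2 fold change was -1.80 (SE 0.21, limma adjusted p = 0.0590). Mta1 (ENSMUSG00000021144.14, chromosome 12, 113098278 to 113137206, plus strand) had 362, 484 and 440.2 normalised counts with HGG Sox9-GOF, against 1201, 1203 and 932 in HGG controls, a log2 fold change of -1.35 (SE 0.20, limma adjusted p = 0.0594). The groups did not overlap there either. Kat2a, the acetyltransferase of SAGA, had 518, 471 and 440.2 with Sox9-GOF, against 991, 1062 and 909.7 in controls (log2 fold change -1.03, SE 0.17, limma adjusted p = 0.0594). Sirt7, a nuclear sirtuin that removes acetyl from histone H3 at lysine 18, had 249.8, 160.0 and 251 with Sox9-GOF, against 513, 533 and 448 in controls (log2 fold change -1.18, SE 0.24, limma adjusted p = 0.0712). Each of these 4 genes was thus lower in 3 of 3 Sox9-GOF libraries than in every HGG control.

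Gatad2b (ENSMUSG00000042390.9, chromosome 3, 90293178 to 90363407, plus strand) stood highest. It had 253, 353 and 275 normalised counts with HGG Sox9-GOF, against 90.5, 80.0 and 73.9 in HGG controls, a log2 fold change of 1.85 (SE 0.24, limma adjusted p = 0.0590). All 3 Sox9-GOF libraries held more than every control. Crebbp, an acetyltransferase of enhancers, had 287, 404 and 354 with Sox9-GOF, against 157, 205 and 158 in controls (log2 fold change 1.02, SE 0.23, limma adjusted p = 0.0785). Kat6a, a MYST acetyltransferase known from blood stem cells, had 1003, 1796 and 1092 with Sox9-GOF, against 637, 750.4 and 481 in controls (log2 fold change 1.05, SE 0.30, limma adjusted p = 0.11), and its second Sox9-GOF library was far above the other 2. Hdac4, a class IIa relative of Hdac7, had 140.0, 185 and 147 with Sox9-GOF, against 87.3, 109 and 90.2 in controls (log2 fold change 0.74, SE 0.25, limma adjusted p = 0.156). None of these 3 genes overlapped between the groups.

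Some classes were split and in others all or nearly all fold changes had 1 sign. Of the 4 class IIa genes, Hdac7 and Hdac5 stood lower (-1.80 and -1.04) and Hdac4 and Hdac9 higher (0.74 and 0.74), and none passed limma. The 7 sirtuins had a median log2 fold change of -0.93, with Sirt4 at -1.54, Sirt7 at -1.18, Sirt2 at -0.96 and Sirt6 at -0.93, but Sirt1 at 0.63. Of the 7 NuRD genes 6 were negative and Gatad2b alone was positive, with a median of -0.19. Both class IIb genes were negative, Hdac6 at -0.26 and Hdac10 at -1.30, as were both bromodomain readers. The signs of the NuRD genes Chd4 and Mta3 and of the reader Brd3 turned when 1 library was left out. Both genes of the p300/CBP pair were positive, Ep300 at 0.39 and Crebbp at 1.02. Class I genes lay between -0.44 for Hdac1 and 0.40 for Hdac8, and the corepressor scaffold Ncor1 had 0.62. Over the 41 genes the median was -0.09 with 15 positive and 26 negative, beside 0.03 over all genes tested. Cell type lists differed with this comparison too: the astrocyte list summed to 33511 to 123112 normalised counts with Sox9-GOF, against 11309 to 51873 in HGG controls, with 10 of 10 genes positive. That list includes Sox9, the altered gene, here and in the comparisons below. The neuron list was 26651 to 39847 with Sox9-GOF, against 5077 to 51518 in controls, with 10 of 10 positive, and the lymphocyte list 91.7 to 482, against 24.6 to 2522, with 9 of 9 negative. Their part in the values of the 41 genes was not tested.

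The promoters of the 2 genes with the smallest p in each direction are printed here so that a reader can set Hdac7 and Mta1, which stood lower, beside Gatad2b and Crebbp, which stood higher. They run 5′ to 3′ from 250 bases before to 50 bases after the annotated start of the gene (RefSeq, build GRCm38.p6). Capitals mark matches to the core of SOX binding sites, searched as ACAATG or ACAAAG on both strands, so that CATTGT and CTTTGT also count. They use the first start that RefSeq lists for each gene, of 4 listed for Hdac7, 2 for Gatad2b and 1 each for Mta1 and Crebbp. The start used for Hdac7 lies 13007 bases inside the gene bounds given above, which come from GENCODE, and that for Crebbp 593 bases inside. The windows are chr15:97831446-97831745 on the minus strand for Hdac7, chr12:113098028-113098327 on the plus strand for Mta1, chr3:90292931-90293230 on the plus strand for Gatad2b and chr16:4213355-4213654 on the minus strand for Crebbp.
Hdac7: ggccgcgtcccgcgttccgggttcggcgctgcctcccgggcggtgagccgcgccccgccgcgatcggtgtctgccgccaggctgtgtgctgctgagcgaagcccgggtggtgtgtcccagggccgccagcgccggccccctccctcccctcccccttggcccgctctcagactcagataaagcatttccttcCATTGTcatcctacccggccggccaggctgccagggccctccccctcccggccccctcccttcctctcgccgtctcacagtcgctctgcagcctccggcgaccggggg
Mta1: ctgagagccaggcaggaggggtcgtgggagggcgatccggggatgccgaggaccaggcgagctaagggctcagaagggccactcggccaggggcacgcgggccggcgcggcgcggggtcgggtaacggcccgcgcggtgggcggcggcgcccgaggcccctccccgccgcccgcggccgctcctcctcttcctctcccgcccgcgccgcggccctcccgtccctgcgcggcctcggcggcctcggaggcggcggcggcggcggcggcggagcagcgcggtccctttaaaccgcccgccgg
Gatad2b: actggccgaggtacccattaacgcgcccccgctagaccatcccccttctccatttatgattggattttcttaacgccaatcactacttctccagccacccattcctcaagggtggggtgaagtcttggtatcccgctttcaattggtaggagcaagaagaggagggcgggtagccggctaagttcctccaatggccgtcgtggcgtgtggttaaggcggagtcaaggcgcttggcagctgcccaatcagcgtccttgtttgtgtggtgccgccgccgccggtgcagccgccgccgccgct
Crebbp: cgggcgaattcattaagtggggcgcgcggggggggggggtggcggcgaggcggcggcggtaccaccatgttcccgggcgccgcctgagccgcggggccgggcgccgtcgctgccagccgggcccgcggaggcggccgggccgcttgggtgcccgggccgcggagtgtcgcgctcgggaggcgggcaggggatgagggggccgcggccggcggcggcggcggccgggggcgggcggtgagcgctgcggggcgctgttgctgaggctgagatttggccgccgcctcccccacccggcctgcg
Hdac7 held 1 match and the other windows 0. Of the 36 genes of this group that matched a promoter of the table, 7 held a match (19.4%), against 7789 of all 27025 promoters (28.8%), with 1 window per gene. CG pairs numbered 31 in the Hdac7 window, 50 in Mta1, 22 in Gatad2b and 49 in Crebbp. The median over the 36 was 20 CG pairs, against 7 over all promoters. Their median GC content was 60.8%, against 52.7% over all promoters, and its part in the share of matches was not tested. A match is only a run of letters, and no binding data are used here.

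Other genes had smaller fold changes in HGG. Chd4 had 1947, 3114 and 2394 normalised counts with Sox9-GOF, against 2892, 2889 and 2135 in HGG controls (log2 fold change -0.08, SE 0.26, limma adjusted p = 0.891). Hdac2 had a log2 fold change of 0.14, the SIN3 scaffold Sin3a -0.02, Kat7 -0.03, Hdac11 -0.02 and Mta3 -0.04. Brd2 had 2703, 2265 and 2488 normalised counts with Sox9-GOF, against 3413, 3924 and 2963 in HGG controls (log2 fold change -0.44, SE 0.20, limma adjusted p = 0.266), and there the groups did not overlap. Mta2 had a log2 fold change of -0.48, with overlap. Mbd3, a NuRD subunit that takes the place of Mbd2, had 978, 1081 and 728 with Sox9-GOF, against 1738, 1851 and 1396 in HGG controls (log2 fold change -0.83, SE 0.23, limma adjusted p = 0.106), and all Sox9-GOF libraries lay below all controls. The acetyl-CoA genes Acly and Acss2 had 0.21 and -0.09.

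**Figure D2:**
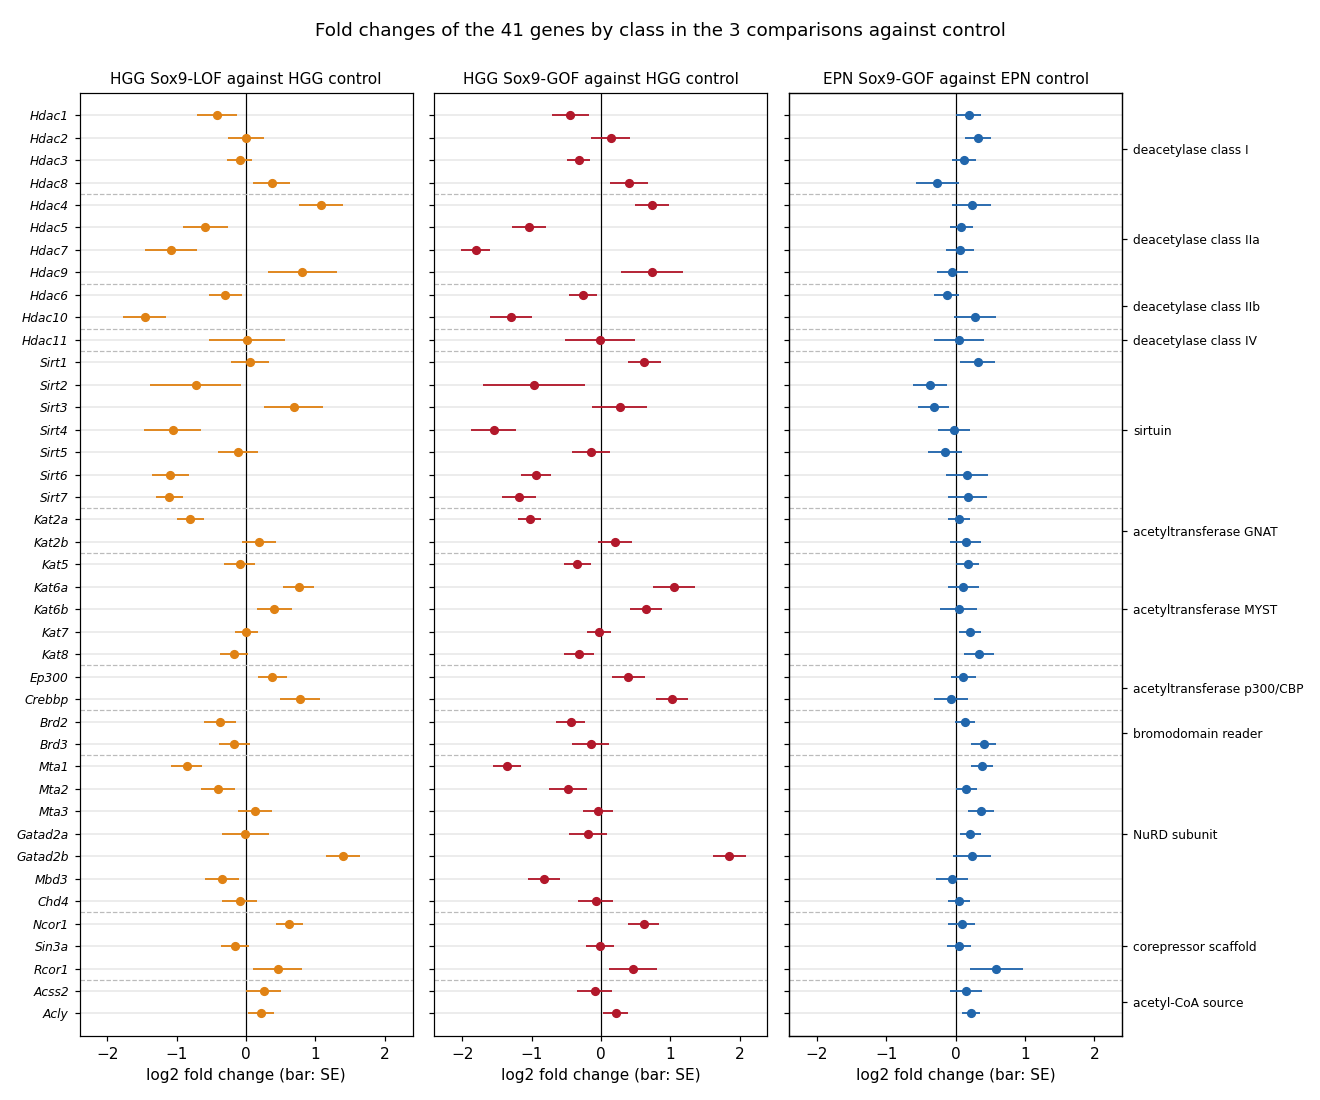
Log2 fold change (horizontal axes, bars SE) of the 41 genes, grouped by class from top to bottom, in HGG Sox9-LOF against HGG control (left), HGG Sox9-GOF against HGG control (middle) and EPN Sox9-GOF against EPN control (right). Both HGG panels spread widely to both sides, with Gatad2b highest, whereas in EPN all genes except Rcor1 lie within 0.5 of 0. No gene passed limma in any panel.

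In the HGG libraries labelled Sox9-LOF, Gatad2b again stood highest and Hdac10 lowest. limma passed 0 of the 41 and 0% of the 14861 genes tested, and edgeR also 0. An unadjusted p under 0.05 was reached by 12 of the 41 (29.3%), 5 higher and 7 lower, against 17.3% of all genes, 9.12% higher and 8.14% lower. The same counts, 5 higher and 7 lower, did not overlap between the groups, against 24.5% of all genes, 12.8% higher and 11.7% lower. DESeq2 called 7 (17.1%), 2 higher and 5 lower, against 8.01% of all genes, 3.8% higher and 4.2% lower.

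Gatad2b had 207, 192 and 254 normalised counts in the libraries labelled Sox9-LOF, against 90.5, 80.0 and 73.9 in HGG controls (log2 fold change 1.39, SE 0.24, limma adjusted p = 0.143). Kat6a had 1038, 979.6 and 1115, against 637, 750.4 and 481 in HGG controls (log2 fold change 0.76, SE 0.22, limma adjusted p = 0.187). Hdac4 had 249, 134 and 248, against 87.3, 109 and 90.2 in HGG controls (log2 fold change 1.08, SE 0.32, limma adjusted p = 0.193). In all 3 genes every library labelled Sox9-LOF lay above every control, although the second one was near the controls for Hdac4. Ncor1, the scaffold that activates HDAC3, had 2272, 2005 and 2050.1, against 1179, 1609 and 1320.2 in HGG controls (log2 fold change 0.63, SE 0.20, limma adjusted p = 0.207), again without overlap.

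On the low side, Sirt7 had 254, 229 and 213 normalised counts in the libraries labelled Sox9-LOF, against 513, 533 and 448 in HGG controls (log2 fold change -1.11, SE 0.19, limma adjusted p = 0.143). Hdac10, a class IIb enzyme that deacetylates polyamines, had 112, 73.8 and 86.8, against 231, 334 and 197 in HGG controls (log2 fold change -1.46, SE 0.30, limma adjusted p = 0.143). Kat2a had 649, 574 and 487, against 991, 1062 and 909.7 in HGG controls (log2 fold change -0.80, SE 0.19, limma adjusted p = 0.155). The groups stayed apart in these 3 genes. Sirt6, a sirtuin that acts on histone H3 at lysines 9 and 56 and on DNA repair, had 79.5, 126 and 112, against 229, 229.6 and 209 in HGG controls (log2 fold change -1.09, SE 0.27, limma adjusted p = 0.156), also without overlap. Hdac7 was uneven among the libraries labelled Sox9-LOF: 224, 481 and 195, against 517, 687 and 560.3 in HGG controls (log2 fold change -1.08, SE 0.38, limma adjusted p = 0.235), the second library being close to the lowest control. Over the 41 genes the median was -0.09, with 18 positive and 23 negative, beside 0.01 over all genes. The astrocyte list, which includes Sox9, summed to 71909.6 to 80502 in the libraries labelled Sox9-LOF, against 11309 to 51873 in HGG controls, with 10 of 10 genes positive. The lymphocyte list summed to 28.4 to 265, against 24.6 to 2522, with 9 of 9 negative. Their part was not tested here either.

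Both HGG comparisons use the same 3 control libraries, so their values are set side by side and no overlap is read from them. Gatad2b had 1.85 with Sox9-GOF and 1.39 in the libraries labelled Sox9-LOF, Hdac10 had -1.30 and -1.46, and Mta1 had -1.35 and -0.85, in the same order. Set directly against each other, without the controls, HGG Sox9-GOF and HGG libraries labelled Sox9-LOF differed for 0 of the 41 in limma (0% of all genes tested), in edgeR and in DESeq2 (0.726% of all genes). At an unadjusted p under 0.05 stood Mta1 with a log2 fold change of -0.53 (SE 0.20, limma adjusted p = 0.654) and Sirt1, a nuclear sirtuin that acts on histones and p53, with 0.54 (SE 0.23, limma adjusted p = 0.671), beside 7.41% of all genes. Sirt1 had 182, 217 and 195 normalised counts with Sox9-GOF, against 109, 152 and 151 in the libraries labelled Sox9-LOF. The 2 groups did not overlap for 6 of the 41 (14.6%), against 13.6% of all genes: Sirt1 was higher and Hdac3, Hdac7, Kat5, Mta1 and Mbd3 were lower with Sox9-GOF.

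In the HGG comparisons the fold change went with the base composition and the length of the transcripts. Over the 41 genes the rank correlation of log2 fold change with transcript GC content was -0.77 with HGG Sox9-GOF and -0.68 in the libraries labelled Sox9-LOF, and over all genes tested it was -0.59 and -0.48. With merged exon length it was 0.63 and 0.64 over the 41, and 0.29 and 0.26 over all genes, in the same order. These are correlations across genes of the same libraries, with no p. With HGG Sox9-GOF, 0 of the 11 genes with over 55% GC were positive and 11 negative, with a median of -1.03, beside a median of -0.55 over all 3640 tested genes of that band, these 11 included. Of the 15 genes with under 50% GC, 11 were positive, with a median of 0.40, beside 0.38 over all genes of the band. Hdac7 has 59.7% GC, Mta1 57.4% and Kat2a 57.2%, whereas Gatad2b has 47.0%, Kat6a 47.4% and Crebbp 51.0%. After a smooth curve over GC content was subtracted in each library, the log2 fold change with HGG Sox9-GOF was -1.11 for Hdac7, -0.80 for Mta1, -0.50 for Kat2a, -0.65 for Sirt7 and -0.02 for Mbd3. It was 1.62 for Gatad2b, 1.08 for Crebbp and 0.92 for Hdac4. After this correction the rank correlation with GC content over the 41 was still -0.36 with HGG Sox9-GOF and -0.28 in the libraries labelled Sox9-LOF. Over all genes it was 0.005 and 0.013. limma with this correction called 0 of the 41 and 0% of all genes in both HGG comparisons. DESeq2 with it, a fit added after the data were seen, called 6 of the 41 with HGG Sox9-GOF. Hdac4, Crebbp and Gatad2b were higher and Hdac7, Sirt4 and Mta1 lower. In the libraries labelled Sox9-LOF it called 3, namely Hdac4 and Gatad2b higher and Sirt7 lower. These DESeq2 calls stand beside 3.67% of all genes with HGG Sox9-GOF and 2.53% in the libraries labelled Sox9-LOF. The part of base composition and of length in the remaining differences was not tested.

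**Figure D3:**
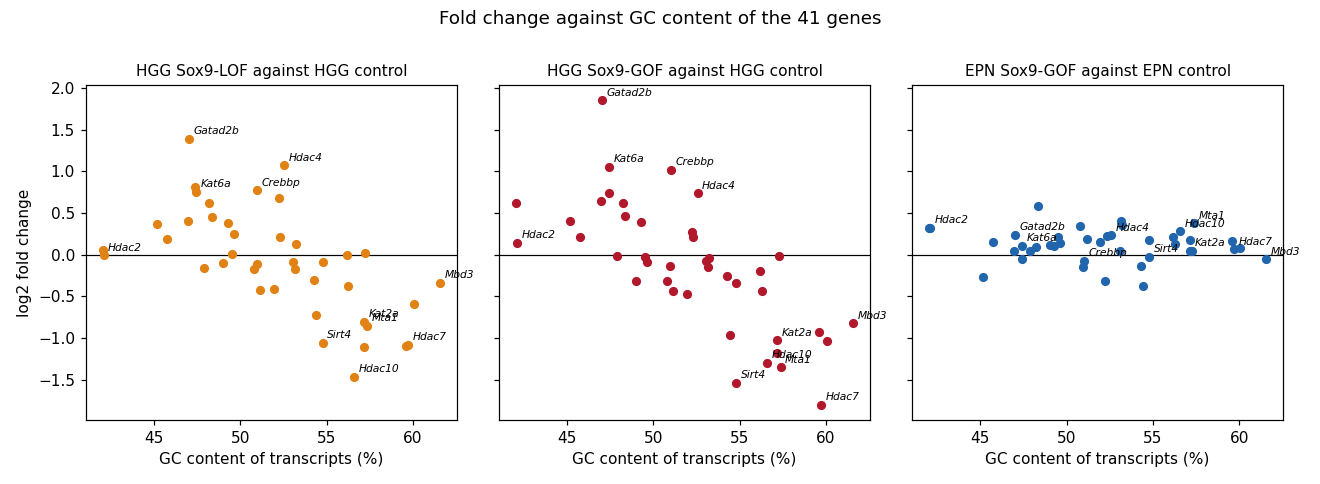
Log2 fold change (vertical axes) against the GC content of the transcripts in percent (horizontal axes) of the 41 genes in HGG Sox9-LOF (left), HGG Sox9-GOF (middle) and EPN Sox9-GOF (right), each against its control, 1 point per gene. Points fall from upper left to lower right in both HGG panels (rank correlations -0.68 and -0.77) and lie flat in EPN (-0.05).

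Related genes can also be read as shares of their family, which were chosen after their values were seen and are a description. Gatad2b took 8.27% to 19.2% of the summed RPKM of Gatad2a and Gatad2b in the libraries labelled Sox9-LOF and 17.2% to 20.4% with HGG Sox9-GOF, against 4.50% to 6.38% in HGG controls. In EPN its share was 4.96% to 7.52% with Sox9-GOF, against 5.14% to 6.90% in controls. The HGG controls lay below both other HGG groups, which overlapped each other, and the EPN groups overlapped. Mta1 took 36.4% to 39.4% of the Mta1, Mta2 and Mta3 sum in the libraries labelled Sox9-LOF and 29.3% to 34.5% with HGG Sox9-GOF, against 45.1% to 48.3% in HGG controls. Kat2a took 59.0% to 68.0% of the Kat2a and Kat2b sum in the libraries labelled Sox9-LOF and 56.0% to 63.5% with HGG Sox9-GOF, against 76.1% to 82.0% in HGG controls. Crebbp took 25.8% to 32.9% of the Crebbp and Ep300 sum and 31.2% to 34.1%, against 23.8% to 24.3%, in the same order of groups. In each of these 3 families the HGG controls stood apart from both other HGG groups. Hdac7 took 11.6% to 39.8% of the class IIa sum in the libraries labelled Sox9-LOF and 17.4% to 19.6% with HGG Sox9-GOF, against 29.4% to 33.2% in HGG controls, so that here the libraries labelled Sox9-LOF overlapped the controls. In EPN, Mta1 took 43.7% to 50.7% with Sox9-GOF, against 42.8% to 43.7% in controls, without overlap. The EPN groups overlapped for Kat2a (49.0% to 61.5% with Sox9-GOF, against 53.3% to 64.6% in controls), for Crebbp (21.4% to 23.8%, against 23.8% to 27.1%) and for Hdac7 (30.3% to 41.2%, against 32.2% to 41.4%).

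With Sox9-GOF in EPN the 41 genes lay close to their controls. limma, edgeR and DESeq2 called 0 of them, beside 0% of 14591 genes in limma and edgeR and 5.82% of genes in DESeq2. At an unadjusted p under 0.05 stood 1 of the 41, Mta1, against 15.1% of all genes. The groups did not overlap for 4 of the 41 (9.76%), with Mta1, Kat8 and Acly higher and Sirt5 lower, against 22% of all genes. No gene of the 41 had a log2 fold change beyond 1 in either direction. With HGG Sox9-GOF 10 had, and in the libraries labelled Sox9-LOF 7, each against the HGG controls. The share of all genes beyond 1 was not computed, so these counts have no background. Over all genes, 30.5% and 24.5% did not overlap in those HGG comparisons, in the same order.

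Mta1 had 1315, 1287 and 1526 normalised counts with EPN Sox9-GOF, against 1201, 1147 and 939.7 in EPN controls (log2 fold change 0.38, SE 0.16, limma adjusted p = 0.322). Brd3, a reader of acetylated histones of the BET family, had 1002, 751 and 1094 with Sox9-GOF, against 727, 695 and 778 in controls (log2 fold change 0.40, SE 0.18, limma adjusted p = 0.361). Its second Sox9-GOF library lay among the controls, while in Mta1 the groups stayed apart. Mta3 had 464, 368 and 447 with Sox9-GOF, against 395, 317 and 316 in controls (log2 fold change 0.36, SE 0.18, limma adjusted p = 0.418), and Hdac2 1601, 1135 and 1188, against 989, 1011 and 1218 (log2 fold change 0.32, SE 0.19, limma adjusted p = 0.487), both with overlap. Among the lower genes, Sirt2 had 954, 1898 and 1342 with Sox9-GOF, against 1942, 1684 and 1770.5 in controls (log2 fold change -0.37, SE 0.25, limma adjusted p = 0.544). Sirt3, the main mitochondrial deacetylase, had 167, 205 and 185, against 199.6, 221 and 308 in controls (log2 fold change -0.32, SE 0.23, limma adjusted p = 0.578). Hdac8 had a log2 fold change of -0.27 (SE 0.31, limma adjusted p = 0.744) and Hdac6, the tubulin deacetylase of class IIb, -0.13 (SE 0.18, limma adjusted p = 0.774). These 4 overlapped between the groups.

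The fold changes in EPN leaned to the positive side. Of the 41 genes 32 were positive, with a median of 0.13, beside 8021 positive of 14591 genes and a median of 0.04. Leaving out 1 library turned the sign of 19 of the 41. Rcor1, the scaffold of CoREST, was the only one beyond 0.5, at 0.58 (SE 0.38, limma adjusted p = 0.536), with 538, 207 and 468 normalised counts with Sox9-GOF, against 239, 334 and 213 in controls. Measures of cell content differed with this comparison. The summed neuron list was 1914 to 3921 normalised counts with EPN Sox9-GOF, against 7064 to 14946 in EPN controls, and 10 of 10 of its genes were negative. The proliferation list was 10035 to 20829.8 with Sox9-GOF, against 7852 to 11519 in controls, and 10 of 10 of its genes were positive. The astrocyte list, which includes Sox9, was 11593 to 32429 with Sox9-GOF, against 40958 to 47676 in controls, with 9 of 10 genes negative. All 11 oligodendrocyte genes were negative. Their part in the lean of the 41 genes was not tested.

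The Sox9-GOF fold change was then compared between the models as a difference, EPN minus HGG, over 12 libraries rescaled together. limma passed 5 of the 41 (12.2%), against 6.1% of 15088 genes tested: 4 were higher in EPN than in HGG, against 2.63% of all genes, and 1 lower, against 3.47%. The difference was 1.84 (SE 0.29, limma adjusted p = 0.0185) for Hdac7, 1.71 (SE 0.24, limma adjusted p = 0.0137) for Mta1, 1.49 (SE 0.37, limma adjusted p = 0.0412) for Sirt4 and 1.05 (SE 0.20, limma adjusted p = 0.0215) for Kat2a. It was -1.64 (SE 0.35, limma adjusted p = 0.0269) for Gatad2b. The Sox9-GOF fold changes behind them were 0.06 in EPN and -1.80 in HGG for Hdac7, 0.38 and -1.35 for Mta1, -0.02 and -1.54 for Sirt4, 0.05 and -1.03 for Kat2a, and 0.24 and 1.85 for Gatad2b. In all 5 the HGG fold change makes up most of the difference. For these 5 genes the libraries labelled Sox9-LOF also lay apart from the same HGG controls, on the same side as HGG Sox9-GOF. With the replicate number as a block over all 12 libraries, limma also passed 5 of the 41, against 5.59% of all genes. Sirt4 was then not among them (limma adjusted p = 0.0523) and Hdac10 was (limma adjusted p = 0.0414). Only HGG Sox9-GOF and its controls were taken as paired, and the fit without the block leaves that pairing out. The block also ties EPN libraries that share only a number.

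Sirt4, a mitochondrial sirtuin of glutamine metabolism, had 80.8, 84.6 and 94.1 normalised counts with EPN Sox9-GOF, against 94.0, 92.4 and 85.6 in EPN controls, and 40.2, 53.6 and 62.3 with HGG Sox9-GOF, against 139.7, 205 and 126 in HGG controls. The EPN groups overlapped and the HGG groups did not. For the same difference all 10 astrocyte genes, Sox9 included, and all 10 neuron genes were negative, with medians of -2.67 and -3.28. Their part in these 5 values was not tested. DESeq2 called 10 of the 41 differences (24.4%), against 15.1% of all genes, adding Hdac5, Hdac10, Sirt6 and Sirt7 upward and Crebbp downward. With the GC correction limma called 0 of the 41 and 0.347% of all genes, with adjusted p = 0.0691 for Mta1, 0.0740 for Hdac7, 0.0746 for Gatad2b, 0.120 for Sirt4 and 0.231 for Kat2a, whereas DESeq2 with it called Hdac7, Sirt4, Mta1, Crebbp and Gatad2b, beside 8.88% of all genes. The count of 5 was 3, 2 and 2 without HGG Sox9-GOF library 1, 2 or 3. It was 2 and 1 without EPN control 2 or 3, and 3 without EPN Sox9-GOF library 3. No share of all genes is set beside these counts.

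**Figure D4:**
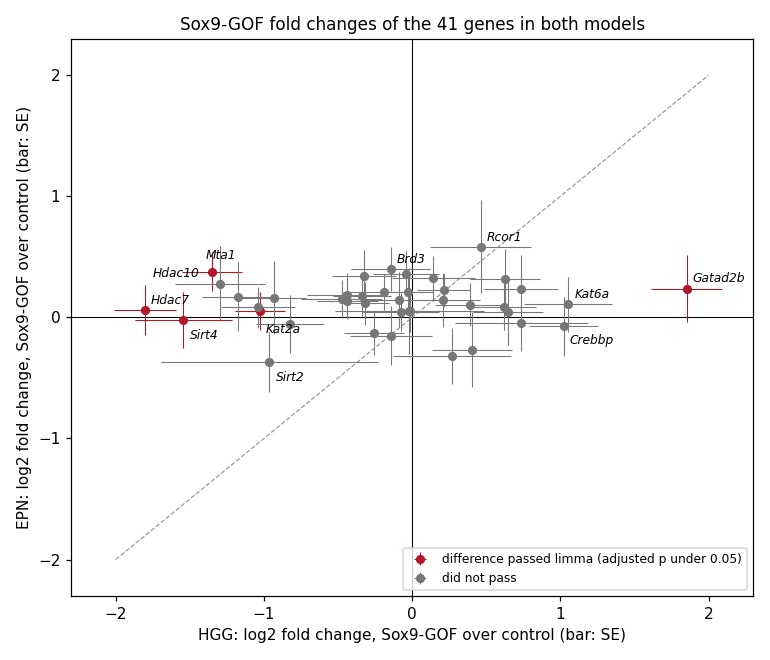
Log2 fold change of Sox9-GOF over control in EPN (vertical axis) and in HGG (horizontal axis) for the 41 genes, with bars for the SE and a dashed line of equal fold change. The 5 red genes, Hdac7, Sirt4, Mta1, Kat2a and Gatad2b, passed limma for the difference without the replicate block (Sirt4 not with it), and they lie far from 0 in HGG (from -1.80 to 1.85) and near 0 in EPN.

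The controls of both models differed as well. EPN control against HGG control gave 5 of the 41 past limma (12.2%), against 15.3% of 15105 genes, on reads rescaled together. Ep300 rose, beside 9.51% of all genes, and Kat2a, Hdac10, Hdac5 and Mbd3 fell, beside 5.83%. Ep300 had 1001, 992 and 905 normalised counts in EPN controls, against 529, 677 and 521 in HGG controls (log2 fold change 0.76, SE 0.17, limma adjusted p = 0.0354). Kat2a had 507, 551 and 501 in EPN controls, against 991, 1062 and 909.7 in HGG controls (log2 fold change -0.92, SE 0.15, limma adjusted p = 0.0141). Both genes were apart in every library. Hdac10 had 89.8, 85.7 and 57.6 in EPN controls, against 231, 334 and 197 in HGG controls (log2 fold change -1.69, SE 0.31, limma adjusted p = 0.0190). Hdac5, a class IIa deacetylase of neurons and muscle, had 766, 699 and 779 in EPN controls, against 1429, 1982 and 1317 in HGG controls (log2 fold change -1.05, SE 0.20, limma adjusted p = 0.0208). Mbd3 had 1146, 960.2 and 853 in EPN controls, against 1738, 1851 and 1396 in HGG controls (log2 fold change -0.75, SE 0.20, limma adjusted p = 0.0482). In these 3 every EPN control lay below every HGG control.

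Rcor1, with 239, 334 and 213 normalised counts in EPN controls, against 159.5, 75.9 and 95.2 in HGG controls, and Crebbp were also higher in EPN controls but did not pass, at 1.29 (SE 0.35, limma adjusted p = 0.0542) and 0.83 (SE 0.22, limma adjusted p = 0.0504). The controls did not overlap for 19 of the 41 (46.3%), 8 higher and 11 lower in EPN, against 40.3% of all genes, 21.9% higher and 18.4% lower, a share near that background. DESeq2 called 11 (26.8%), against 26.9% of all genes. Without any single EPN control limma called 0 of the 41, a count with no share of all genes beside it here. With the GC correction limma called 4, with Crebbp added and Hdac5 and Mbd3 not called, beside 12.7% of all genes. The rank correlation with GC content was -0.64 over the 41 and -0.26 over all genes, and with merged exon length 0.55 and 0.05. Beside this comparison, the summed endothelial list was 2817 to 3966 normalised counts in EPN controls, against 599 to 1383 in HGG controls, and its part in these differences was not tested.

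Sirt2 had the largest SD relative to its mean over the 15 libraries among the 41. It had 1619, 2834 and 3719 normalised counts in the libraries labelled Sox9-LOF and 1021, 2855 and 3375 with HGG Sox9-GOF, against 6135, 7987 and 1561 in HGG controls. In EPN it had 954, 1898 and 1342 with Sox9-GOF, against 1942, 1684 and 1770.5 in controls. All groups of a model overlapped, and HGG control 3 stood with the EPN libraries. The log2 fold change was -0.73 (SE 0.66, limma adjusted p = 0.598) in the libraries labelled Sox9-LOF and -0.96 (SE 0.73, limma adjusted p = 0.485) with HGG Sox9-GOF. Sirt2 is abundant in oligodendrocytes, and the summed oligodendrocyte list was 52206 to 123371 in the libraries labelled Sox9-LOF and 25779 to 72014 with HGG Sox9-GOF, against 47394 to 158224 in HGG controls. In EPN it was 3552 to 27135 with Sox9-GOF, against 21314 to 40862 in controls. The part of oligodendrocyte content in the level of Sirt2 was not tested.

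**Figure D5:**
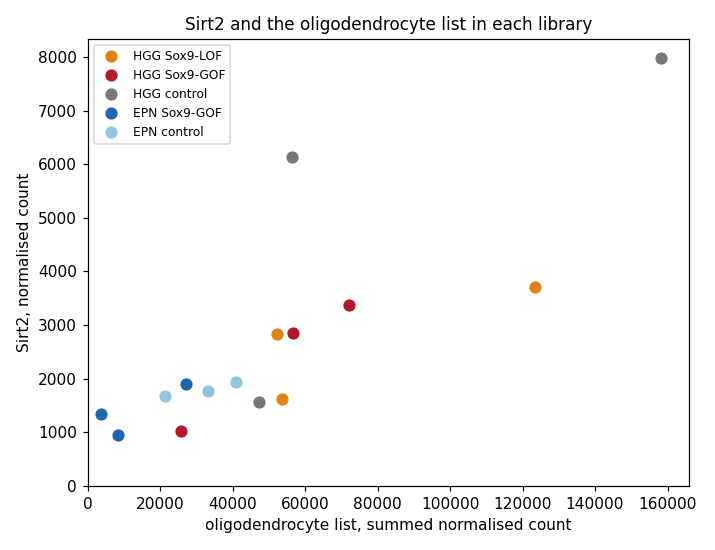
Normalised count of Sirt2 (vertical axis) against the summed normalised count of the oligodendrocyte list (horizontal axis) in each of the 15 libraries, coloured by group. HGG control 2 is highest on both axes (7987 for Sirt2), while EPN Sox9-GOF libraries 1 and 3 are among the lowest on both and library 2 is in the middle for Sirt2 (1898). Other libraries part: HGG control 1 (list 56438) lies far above HGG Sox9-LOF 1 (list 53589) for Sirt2. HGG Sox9-LOF 3 has a larger list sum (123371) than HGG control 1 but a lower Sirt2 count.

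A list of 106 further genes of histone acetylation gave the setting of the 41. It holds other subunits of NuRD, SIN3, NCOR and CoREST, partners of the acetyltransferases, other readers and other acetyl-CoA enzymes. No gene of it passed limma in the libraries labelled Sox9-LOF, with HGG Sox9-GOF or with EPN Sox9-GOF, and its medians were 0.00, -0.03 and 0.14. With HGG Sox9-GOF, 35 stood at an unadjusted p under 0.05 (18 higher, 17 lower), against 22.7% of all genes, and DESeq2 called 24 (14 higher, 10 lower), against 13.6%. The smallest p upward were those of Clock, a circadian factor with acetyltransferase activity (1.36, SE 0.18, limma adjusted p = 0.0594), and Phip, a bromodomain protein (1.51, SE 0.22, limma adjusted p = 0.0594). Downward they were Gps2, a subunit of the NCOR complex (-1.26, SE 0.20, limma adjusted p = 0.0594), and Mier2, a scaffold that recruits HDAC1 (-1.09, SE 0.19, limma adjusted p = 0.0594).

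In the libraries labelled Sox9-LOF, 26 of the 106 stood at an unadjusted p under 0.05 (15 higher, 11 lower), against 17.3% of all genes, and DESeq2 called 9, against 8.01%. Clock had 1.34 (SE 0.20, limma adjusted p = 0.143) and Trim33, a bromodomain protein of TGF-beta signalling, 0.95 (SE 0.19, limma adjusted p = 0.143), while Mier2 had -1.08 (SE 0.20, limma adjusted p = 0.143) and Hmg20b, a subunit of CoREST, -1.55 (SE 0.33, limma adjusted p = 0.144). With EPN Sox9-GOF, 7 of 105 stood at an unadjusted p under 0.05 (3 higher, 4 lower), against 15.1% of all genes, and DESeq2 called 1, against 5.82%. Wdr5, shared by several chromatin complexes, had 0.38 (SE 0.15, limma adjusted p = 0.279), Mbd2, the methyl-CpG reader of NuRD, 0.32 (SE 0.13, limma adjusted p = 0.321), Chd5, a remodeller of neurons, -1.78 (SE 0.42, limma adjusted p = 0.160), and Smarca2, a bromodomain ATPase, -0.59 (SE 0.22, limma adjusted p = 0.266). The values of Chd5 stand beside a neuron list that was lower in the same libraries.

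For the difference of the Sox9-GOF fold changes, EPN minus HGG, 6 of the 106 passed limma, against 6.1% of all genes. Gps2, Hmg20b, Mier2 and Vps72, a partner of KAT5, were higher in EPN, at 1.46, 1.97, 1.57 and 1.15 (limma adjusted p = 0.0208, 0.0227, 0.0215 and 0.0343). Clock and Tbl1xr1, a subunit of the NCOR complex, were lower, at -1.59 and -1.19 (limma adjusted p = 0.0269 and 0.0201). None of the 6 passed with the GC correction. Between the controls, EPN against HGG, 15 of the 106 passed, 9 higher and 6 lower, against 15.3% of all genes. Among them were Cecr2, a bromodomain protein, at 2.03 (SE 0.28, limma adjusted p = 0.00860), and Dpf1, a reader of neuronal chromatin remodellers, at -1.83 (SE 0.30, limma adjusted p = 0.0136).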

How the data were processed

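Poly(A) RNA of 15 mouse brain tumour libraries was sequenced from 300 ng of total RNA with a stranded kit, per the labels. Without roles, the submitters' processing notes list DESeq2 1.30.1, STAR 2.5.0a, MultiQC 1.11 and FastQC 0.11.7, and the build mm10. Which tool counted reads, and whether by strand, is not given in the sources used here. The authors deposited a normalised signal per gene in 3 tables, where each value is a read count over a per-library size factor. Whole reads were recovered for 100% of values (within 0.001 read), so the reads of all libraries could be rescaled together by the median of ratios for levels, for the difference between models and for comparisons across tables. Fold changes against control came from each table as deposited and differed by at most 0.046 (log2) from the joint scale. HGG control reads were the same in both HGG tables, and 0 sample columns were left unused.

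limma 3.58.1 (R 4.3.3, trended variance) was run on log2(value + 1) for genes averaging 10 or more, and p-values were adjusted over all of them (Benjamini-Hochberg, 0.05). Fold changes on this scale understate the change of low genes. Alternatives used edgeR 4.0.16 and DESeq2 1.42.0 on recovered reads, other pseudocounts, filters and scalings, a replicate block and a GC correction. The limma step was tested on simulated data with the same dispersion for every gene and library. Those data lack the unlikeness of the HGG controls, so they do not show how the step performs on these libraries. With 3 against 3 libraries an exact permutation test cannot go below p = 0.1, so none is given. GC content, lengths and overlaps come from GENCODE M21 on GRCm38, the build of mm10, and promoters from RefSeq (GRCm38.p6).

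To check pairing, each library's deviation from its group mean was correlated with that of the library of the same number. HGG Sox9-GOF libraries and HGG controls gave 0.178, 0.443 and 0.224, each above 0.1, and were taken as paired. The main limma, edgeR and DESeq2 tests left this pairing out, and only the fits with the replicate block used it. The pairing comes from the data, since the labels give only numbers, and no correlation between different numbers was computed for comparison. For the libraries labelled Sox9-LOF (-0.141, 0.073 and 0.199) and EPN (-0.100, 0.020 and 0.297) they share only a number.

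The 41 genes and all lists were chosen with earlier results of these data known. Genes shown library by library were the 4 with the smallest p in each direction per comparison against control, those of the further list the 2 smallest, and promoters the 2 smallest per direction with HGG Sox9-GOF. Genes beyond that rule were named after their values were seen.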

Additional observations from a re-analysis of the deposited data

Results flagged for a closer look

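In 5 of the 41 genes the Sox9-GOF fold change differed between the models, EPN minus HGG, by limma's test of the difference itself. In all 5 the libraries labelled Sox9-LOF also lay apart from the same HGG controls, with Gatad2b higher and the other genes lower. HGG Sox9-GOF set directly against those libraries gave 0 of the 41 in limma. The part of the HGG controls in the difference was not tested. The difference was 1.84 for Hdac7, 1.71 for Mta1, 1.49 for Sirt4, 1.05 for Kat2a and -1.64 for Gatad2b on the log2 scale. With the replicate block Sirt4 did not pass (limma adjusted p = 0.0523) and the other 4 did. With the GC correction limma called none of these 5, and DESeq2 with it called Hdac7, Mta1, Sirt4 and Gatad2b but not Kat2a. Groups of 3 libraries were too small for a rule on single outlying samples.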

How the results depend on the processing

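Counts are of the 41 genes called at an adjusted p under 0.05. Where it is not given above, the share of all genes is in parentheses, with the exceptions named below. With HGG Sox9-GOF the count was 0, and 13 with DESeq2, 13 with the spread of all 15 libraries (14.8%), 3 with a mean of at least 50, and 6 by DESeq2 with GC correction. In the libraries labelled Sox9-LOF it was 0, and 7, 8 (7.19%), 0 (0.00795%) and 3 under the same settings. In limma with the GC correction it was 0 in both of these comparisons, with or without the replicate block. For EPN minus HGG it was 5, and 10 with DESeq2, 0 with GC correction and 0 with GC correction and the replicate block. For EPN control against HGG control it was 5, and 11 with DESeq2, 9 with the spread of all 15 libraries (27.6%), 1 with the replicate block (7.56%), 1 with the block and GC correction, and 9 by DESeq2 with GC correction (25.3%). Leaving out 1 library in limma gave 1 to 7 for EPN minus HGG, 0 to 5 for the controls and 0 elsewhere. DESeq2 without 1 HGG control gave 3 to 7 in the libraries labelled Sox9-LOF, 10 to 12 with HGG Sox9-GOF, 8 to 10 for EPN minus HGG and 6 to 7 for the controls. These DESeq2 fits were chosen after seeing the data, as was DESeq2 with GC correction. No share of all genes is given for fits that leave out 1 library or join the block and the GC correction. Their counts can therefore not be set against all genes. With the replicate block the count was 0 in each comparison against control of the same model (0% of all genes in each). It was 5 for EPN minus HGG, where Sirt4 had adjusted p = 0.0523 and Hdac10 0.0414 in limma. The cause of these shifts was not tested. None of the 8 fold changes named by rule in each comparison against control changed sign under any of these settings. Among all 41 genes, leaving out 1 library turned the sign of 10 in the libraries labelled Sox9-LOF, of 10 with HGG Sox9-GOF, and in EPN of 19 with Sox9-GOF, Chd4 in all 3 comparisons and Sirt4 in EPN among them.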
